A study of Mus musculus with 6 samples.

Results

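The 9 genes described here code for transcription factors of the trophectoderm, the outer layer of the blastocyst that gives rise to the placenta: Cdx2, Elf5, Eomes, Tfap2a, Tfap2c, Gata2, Gata3, Hand1 and Tead4. They were chosen by name, through their Entrez identifiers, from the 24467 genes counted in a study of mouse embryonic stem (ES) cells lacking the heterochromatin proteins HP1 alpha (Cbx5) and HP1 beta (Cbx1), and 7 of the 9 passed the filter on low counts, as did 14771 genes in all. The double knockout (DKO) was sampled as clone 1 and clone 2, with 2 libraries each, and the reference was a single control clone with 2 libraries, whose floxed alleles (Hp1α/β F/F) were intact and whose genotype label is WT. All cells were otherwise untreated and grown with leukaemia inhibitory factor, 3 µM of the GSK3 inhibitor CHIR99021 and 0.8 µM of the MEK inhibitor PD184352. Libraries held 24628872 to 27876620 counted reads in DKO and 32327537 and 34641560 in the control. With 1 control clone, an effect of the deletion and a difference between clones cannot be told apart, and p-values here measure the spread between libraries, which may be technical.

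In the embryo, TEAD4 works with the coactivator YAP in outer cells, where Hippo signalling is low, and switches on Cdx2 and Gata3. CDX2 then represses pluripotency genes, while EOMES, ELF5 and TFAP2C sustain trophoblast stem cells, and GATA2, GATA3, TFAP2A and HAND1 act in the differentiating trophoblast. In ES cells this network is kept low, and the Elf5 promoter is known as a methylated barrier between the lineages. Several of these factors also work elsewhere: Eomes in the primitive streak, Hand1 in mesoderm, Tfap2a and Gata3 in ectoderm, and Tfap2c in germ cells and ES cells.

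The libraries matched their labels at the deleted genes. Cbx5 had 191 to 205 CPM (the read count scaled to a common library size) in DKO libraries, against 809 and 813 CPM in control libraries, and Cbx1 had 43.9 to 49.3 CPM in DKO, against 223 and 227 CPM in the control. The summed level of 10 ES cell markers, among them Pou5f1, Sox2 and Nanog, was 4176 to 4446 CPM in DKO libraries and 4105 and 4338 CPM in control libraries, with none at 0 reads. Of 20 placental trophoblast markers, 7 had 0 reads in each of the 6 libraries, among them Prl3d1, Prl3b1, Tpbpa and Ctsq. Others were detected, such as the syncytin gene Syna with 2 to 6 reads a library and Flt1 with 17 to 106 reads a library.

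RefSeq promoter windows on GRCm38.p6, from 250 bases before to 50 after a transcription start, were found for 6 of the 9 genes (9 windows). Tfap2c, Hand1 and Tead4 were not among them. The windows below are shown because Gata3, Tfap2a and Eomes were higher in both DKO clones, whereas Cdx2 stayed at trace level. The Tfap2a window is the first of 2. Capitals mark matches to GCCNNNGGC, the palindromic motif bound by TFAP2 proteins, which reads the same on both strands.
Gata3 (chr2:9878551-9878850, minus strand): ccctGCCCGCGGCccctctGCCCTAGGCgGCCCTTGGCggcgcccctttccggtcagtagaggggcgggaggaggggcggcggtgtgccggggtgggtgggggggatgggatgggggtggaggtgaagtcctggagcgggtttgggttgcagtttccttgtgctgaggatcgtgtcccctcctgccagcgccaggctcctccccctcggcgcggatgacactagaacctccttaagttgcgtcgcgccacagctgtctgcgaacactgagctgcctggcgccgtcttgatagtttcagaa
Tfap2a (chr13:40734871-40735170, minus strand): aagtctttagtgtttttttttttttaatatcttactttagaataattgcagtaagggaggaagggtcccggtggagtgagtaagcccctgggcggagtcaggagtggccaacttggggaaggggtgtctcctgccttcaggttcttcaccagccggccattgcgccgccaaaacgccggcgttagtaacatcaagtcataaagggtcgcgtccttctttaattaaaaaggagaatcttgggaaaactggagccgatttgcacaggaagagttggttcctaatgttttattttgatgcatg
Eomes (chr9:118477939-118478238, plus strand): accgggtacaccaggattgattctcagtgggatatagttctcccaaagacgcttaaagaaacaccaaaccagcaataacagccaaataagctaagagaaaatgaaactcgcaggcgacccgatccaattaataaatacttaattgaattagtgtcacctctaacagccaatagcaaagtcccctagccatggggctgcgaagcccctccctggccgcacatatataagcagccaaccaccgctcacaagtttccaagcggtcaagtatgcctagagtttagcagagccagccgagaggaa
Cdx2 (chr5:147307200-147307499, minus strand): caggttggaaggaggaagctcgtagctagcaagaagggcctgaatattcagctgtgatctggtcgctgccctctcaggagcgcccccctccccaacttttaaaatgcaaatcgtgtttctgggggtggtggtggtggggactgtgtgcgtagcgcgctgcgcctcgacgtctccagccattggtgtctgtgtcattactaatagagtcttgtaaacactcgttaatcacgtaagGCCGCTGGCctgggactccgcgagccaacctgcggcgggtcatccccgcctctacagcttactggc
The Gata3 window held 3 matches to GCCNNNGGC, a number reached by 0.444% of 32851 promoter windows, while 16.6% held at least 1. These shares cover windows of any base composition, and G and C made up 67.3% of the Gata3 window. Matches can overlap other motifs, and a match of letters is a description only. The Cdx2 window held 1 match, the second Gata2 window 1, and those of Eomes, Tfap2a and Elf5 none. Matches to AGATAA, a form of the GATA motif, were found in none of the 9 windows, against 11.2% of all windows, counting both strands. Other forms of the GATA motif were not searched, so their absence is not shown. GGAATG, a TEAD motif, was found in 1 of 2 Elf5 windows and 1 of 2 Gata2 windows, against 14.7% of all windows. GGTGTGA, a T-box motif, was found in 1 Elf5 and 1 Gata2 window (3.98% of all windows), and CATAAA, a CDX motif, in 1 Elf5 and 1 Tfap2a window (11.9%). CpG dinucleotides numbered 22 in the Gata3 window, 18 in Cdx2, 11 and 15 in the Tfap2a windows and 10 in Eomes. Gata2 had 32 and 29, and the Elf5 windows 3 and 10, beside a median of 7 over all windows.

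Measured per length, Tead4 and Tfap2c had the highest levels of the 9 genes, followed by Eomes, and Hand1 and Elf5 the lowest. Levels per length are given as RPKM, the CPM divided by the deposited gene width in kilobases. In DKO libraries the order was Tead4 (8.19 ± 0.943 RPKM, SD, n = 4), Tfap2c (7.50 ± 1.44), Eomes (3.57 ± 1.13), Tfap2a (0.808 ± 0.159), Gata3 (0.679 ± 0.201), Gata2 (0.268 ± 0.0776), Cdx2 (0.155 ± 0.0770), Hand1 (0.0194 ± 0.0225) and Elf5 (0.00330 ± 0.00382). In control libraries Tfap2c led (6.54 ± 0.408 RPKM, SD, n = 2), followed by Tead4 (6.15 ± 0.842), Eomes (1.88 ± 0.225), Gata3 (0.255 ± 0.0805), Tfap2a (0.249 ± 0.0239), Gata2 (0.188 ± 0.0140), Cdx2 (0.106 ± 0.0329), Hand1 (0.0301 ± 0.00132) and Elf5, listed at 0. The ranges of mean ± 1 SD overlapped between the neighbours Tead4 and Tfap2c, and between Tfap2a and Gata3, in both genotypes. In DKO the same held for Gata2 and Cdx2 and for Hand1 and Elf5. Of all tested genes, 63.4% lay below Tead4 in DKO and 57.8% in the control, and 46.3% lay below Eomes in DKO and 35.4% in the control. For Tfap2a it was 24.7% in DKO and 10.8% in the control. In these bulk samples, fewer cells of a type and less RNA per cell cannot be told apart.

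**Figure D1:**
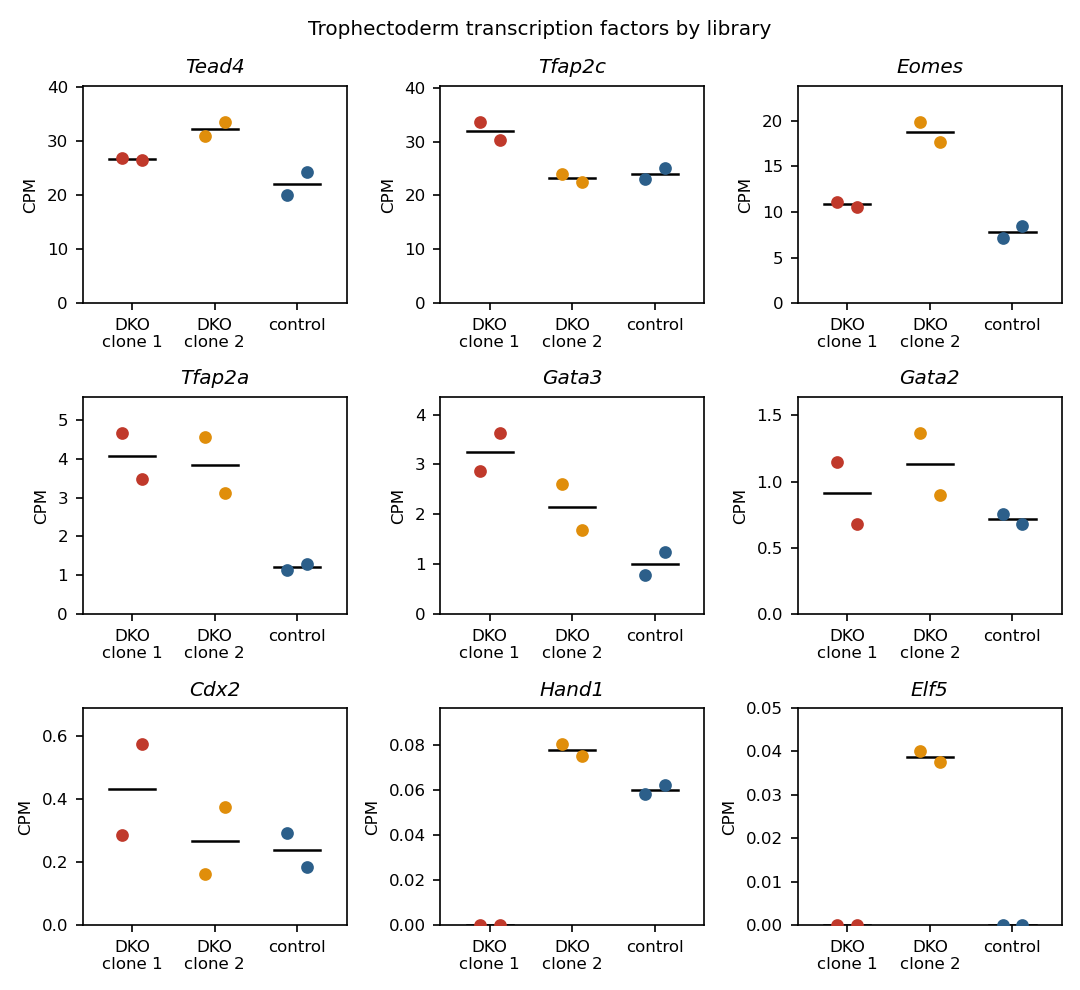
Expression of the 9 trophectoderm factors in CPM (linear axes from 0, a scale per gene), with 1 point per library and a bar at the mean of the 2 libraries of each DKO clone and of the control clone. For Tfap2a, Gata3, Eomes and Tead4 all 4 DKO libraries lie above both control libraries, and Hand1 and Elf5 stay at 0 to 2 reads.

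Tfap2a and Gata3 rose in DKO cells against control, in both clones. Tfap2a codes for the AP-2 alpha factor of trophoblast, surface ectoderm and neural crest (Entrez 21418, GRCm38 chromosome 13, 40713802 to 40738238). It had 4.67 and 3.48 CPM in clone 1 and 4.58 and 3.11 CPM in clone 2, against 1.14 and 1.301 CPM in the control. The groups did not overlap, and the lowest DKO library was above the higher control library. The mean was 3.96 ± 0.780 CPM in DKO (SD, n = 4) and 1.22 ± 0.117 CPM in the control (SD, n = 2), a log2 change of 1.70 (SE 0.252, 95% interval 1.14 to 2.26, edgeR adjusted p = 0.0028). Against control the log2 change was 1.74 in clone 1 (adjusted p = 0.000682) and 1.65 in clone 2 (adjusted p = 0.00102), in an edgeR fit with 3 groups. The clones differed by -0.09 (clone 2 over clone 1, interval -0.61 to 0.43, adjusted p = 0.888). Without control library 1, which leaves 1 control library, the log2 change was 1.604 with adjusted p = 0.0625.

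Gata3 codes for a GATA factor that acts beside Cdx2 in early trophectoderm (Entrez 14462, chromosome 2, 9857078 to 9887953). Its libraries had 2.87 and 3.63 CPM in clone 1 and 2.61 and 1.69 CPM in clone 2, against 0.786 and 1.24 CPM in the control. All DKO libraries were above both control libraries, with clone 2 library 2 the nearest to them. The mean was 2.70 ± 0.801 CPM in DKO (SD, n = 4) and 1.01 ± 0.320 CPM in the control (SD, n = 2), a log2 change of 1.42 (SE 0.342, interval 0.66 to 2.18, edgeR adjusted p = 0.029). It was 1.68 in clone 1 (adjusted p = 0.00244) and 1.08 in clone 2 (adjusted p = 0.0404), and the difference of the clones did not pass (-0.60, interval -1.23 to 0.03, edgeR adjusted p = 0.268). The call was less firm than that of Tfap2a, at 27 to 101 reads per library. The DKO adjusted p was 0.264 without control library 1, 0.102 without control library 2 and 0.0562 without clone 1 library 2. For clone 2 it was 0.216 without control library 1, 0.289 without clone 2 library 1 and 0.0643 in limma-voom.

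Both genes overlap antisense transcripts in GENCODE M21. Of 4903 exonic bases of Tfap2a, 265 are shared with Gm47061, 380 with Gm26688 and 73 with Gm47067. Of 3978 exonic bases of Gata3, 155 are shared with antisense Gm13256 and 77 with 9230102O04Rik on its own strand, and Eomes shares 118 of 4155 bases with antisense Gm33460. The strand that was counted is not given in the sources used here, so reads of these stretches cannot be told apart. No exonic overlap was annotated for the other 6 factors.

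Eomes was higher in each clone against control, and to a different extent. It codes for a T-box factor of trophoblast stem cells and of the primitive streak (Entrez 13813, chromosome 9, 118478186 to 118486132). Its libraries had 11.1 and 10.6 CPM in clone 1 and 19.9 and 17.7 CPM in clone 2, against 7.13 and 8.46 CPM in the control. The 3 pairs of libraries did not overlap, with clone 2 highest and the control lowest. Eomes rose by a log2 change of 0.48 in clone 1 (SE 0.137, edgeR adjusted p = 0.0318) and of 1.27 in clone 2 (SE 0.134, adjusted p = 4.15e-05), and clone 2 was above clone 1 by 0.79 (SE 0.132, adjusted p = 0.00399). Over both clones the log2 change was 0.93 (SE 0.256, interval 0.36 to 1.49), which just missed the threshold in the fit with genotype alone (edgeR adjusted p = 0.0505), where the spread between clones counts as error. In the 3-group fit, the mean of both clones against control was 0.87 with adjusted p = 0.000217, an alternative chosen after the data were seen, and DESeq2 gave adjusted p = 0.00145. The clone 1 call ended without control library 1 (adjusted p = 0.202), clone 1 library 1 (0.132) or clone 1 library 2 (0.062), and the call between clones without clone 2 library 1 (0.053).

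Tfap2c differed between the clones. It codes for AP-2 gamma, which is needed in trophoblast and germ cells and is also active in naive ES cells (Entrez 21420, chromosome 2, 172545678 to 172558622). It had 33.6 and 30.3 CPM in clone 1 and 23.9 and 22.4 CPM in clone 2, against 23.0 and 25.1 CPM in the control. Clone 2 and the control overlapped, and clone 1 lay above both. Tfap2c rose in clone 1 against control (log2 change 0.41, SE 0.0986, edgeR adjusted p = 0.0127) and was at -0.05 in clone 2 (interval -0.27 to 0.16, adjusted p = 0.777). Clone 2 was below clone 1 by -0.46 (SE 0.100, edgeR adjusted p = 0.016). The clone 1 call ended without control library 1 (adjusted p = 0.0947) or clone 1 library 1 (0.11), and the call between clones without clone 1 library 1 (0.118), clone 2 library 1 (0.0725) or clone 2 library 2 (0.15). Over both clones Tfap2c was at 0.20 (interval -0.15 to 0.54, adjusted p = 0.493).

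**Figure D2:**
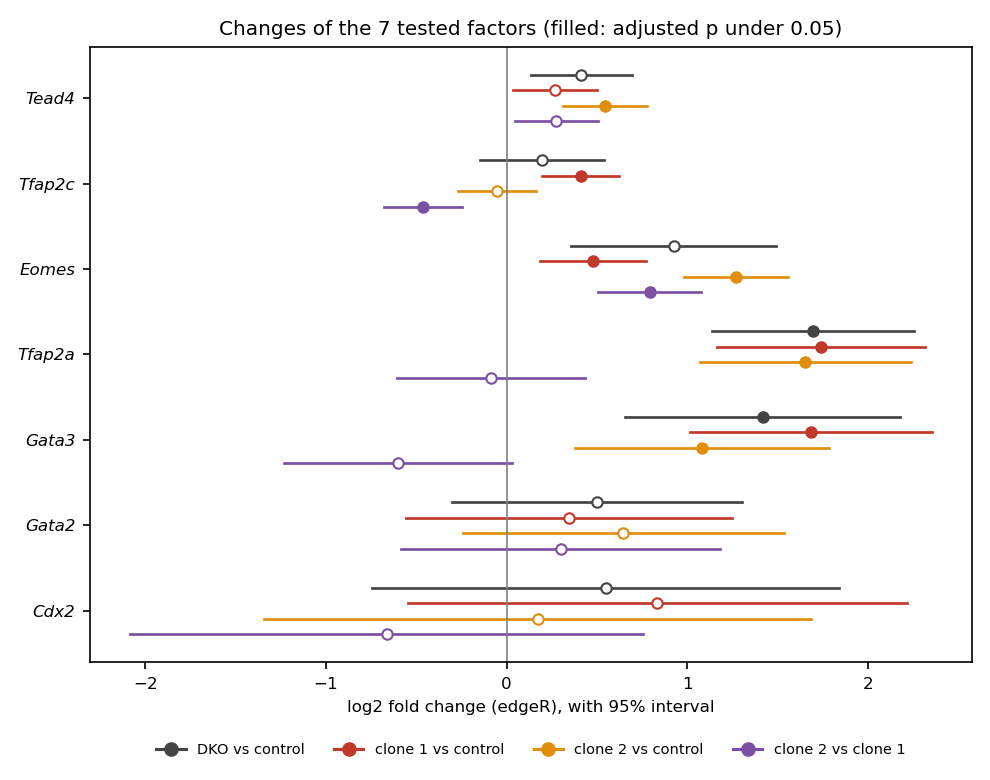
Log2 fold changes from edgeR (points) with 95% intervals (lines) for the 7 factors that passed the filter, for DKO vs control, each clone against the shared control, and clone 2 vs clone 1. Filled points have adjusted p under 0.05: Tfap2a and Gata3 are filled in all 3 comparisons with control, Eomes in both single clones, Tfap2c in clone 1 and Tead4 in clone 2.

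Tead4 and Gata2 lie on chromosome 6, whose genes shifted upwards together in both clones. Tead4 codes for the TEAD factor at the top of the trophectoderm network (Entrez 21679, 128227143 to 128300813). It had 26.9 and 26.4 CPM in clone 1 and 31.0 and 33.5 CPM in clone 2, against 20 and 24.3 CPM in the control. All DKO libraries were above both control libraries, those of clone 2 by more. Tead4 rose in clone 2 (log2 change 0.54, SE 0.107, edgeR adjusted p = 0.00374) and did not pass in clone 1 (0.27, adjusted p = 0.113) or over both (0.41, interval 0.13 to 0.69, adjusted p = 0.0721). The clone 1 value passed without control library 2 (0.42, adjusted p = 0.036), and the value over both passed in DESeq2 (adjusted p = 0.0251). The median of the 709 tested genes of chromosome 6 was shifted by 0.48 in DKO, by 0.44 in clone 1 and by 0.51 in clone 2, from the median of all genes. After subtracting the median of each chromosome, Tead4 was at -0.07 in DKO (edgeR adjusted p = 0.811), at -0.17 in clone 1 and at 0.03 in clone 2 (adjusted p = 0.886). Of chromosome 6 genes, 39.6% had a lower DKO log2 change than Tead4.

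Gata2, a GATA factor of trophoblast giant cells and blood progenitors (Entrez 14461, 88193891 to 88207032), had 1.15 and 0.682 CPM in clone 1 and 1.36 and 0.900 CPM in clone 2, against 0.757 and 0.681 CPM in the control. Clone 1 overlapped the control and clone 2 lay above it. The log2 change of 0.50 did not pass (interval -0.30 to 1.304, edgeR adjusted p = 0.45), and it was 0.02 with chromosomes centred. Among chromosome 6 genes 52.8% had a lower log2 change, so Gata2 and Tead4 both stood near the middle of their chromosome. By contrast, 99.5% of 578 genes of chromosome 13 lay below Tfap2a, 99.6% of 1131 genes of chromosome 2 below Gata3 and 98.0% of 830 genes of chromosome 9 below Eomes. With chromosomes centred, Tfap2a was at 1.72 (edgeR adjusted p = 0.0049), Gata3 at 1.42 (0.0437) and Eomes at 0.95 (0.0642). The medians of these 3 chromosomes were shifted by -0.0252 to -0.00158.

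**Figure D3:**
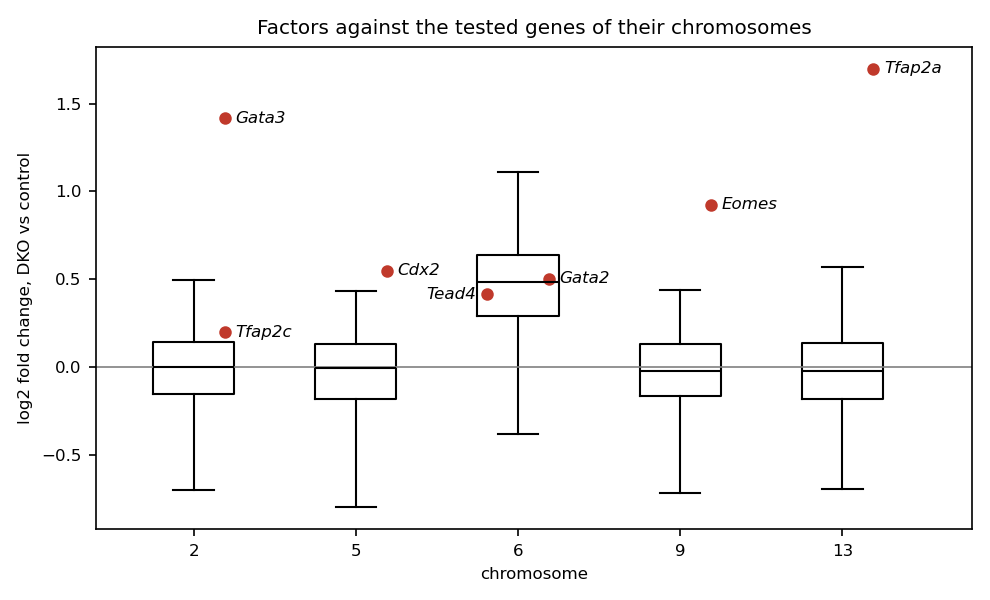
Log2 fold change in DKO vs control of the 7 tested factors (red points) beside all tested genes of their chromosomes (boxes: quartiles and median, whiskers: 5th to 95th percentile). Tfap2a, Gata3, Eomes and Cdx2 lie above the whiskers of chromosomes 13, 2, 9 and 5. The Cdx2 point rests on 4 to 16 reads a library and did not pass (edgeR adjusted p = 0.629). Tead4 and Gata2 lie inside the box of chromosome 6, whose median is 0.48.

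Cdx2, Hand1 and Elf5 stayed at trace level in all 6 libraries. Cdx2, the factor that defines trophectoderm (Entrez 12591, chromosome 5, 147300900 to 147307249), had 8 and 16 reads in clone 1 and 4 and 10 reads in clone 2, against 10 and 6 reads in the control. These are 0.161 to 0.575 CPM in DKO and 0.186 and 0.291 CPM in the control, and the groups overlapped. The log2 change of 0.55 did not pass (SE 0.583, interval -0.74 to 1.84, edgeR adjusted p = 0.629), so changes within that interval were not excluded. Hand1, a bHLH factor of giant cells and mesoderm (Entrez 15110, chromosome 11, 57828713 to 57832147), had 0 reads in both clone 1 libraries, 2 in each clone 2 library and 2 in each control library. Elf5, the ETS factor that maintains trophoblast stem cells (Entrez 13711, chromosome 2, 103412098 to 103450989), had 0 reads in clone 1, 1 in each clone 2 library and 0 in the control. Hand1 and Elf5 did not pass the filter and were not tested. A count of 0 allows up to 3 reads, which is 0.108 CPM in each clone 1 library and 0.0873 and 0.0929 CPM in the control libraries, so no fold is given. These limits cover counting error only.

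Across the 7 tested factors, 2 rose and none fell in DKO against control in edgeR, where 5.06% of all tested genes were higher and 3.62% lower (8.69% in either direction). At an unadjusted p under 0.05, Eomes and Tead4 joined them, so that 4 were higher and none lower. The share of all genes at that unadjusted threshold was not computed, here or for the lists below. DESeq2 and limma-voom called none of the 7 lower. The median log2 change of the 7 was 0.55, beside 0.00038 over all 14771 genes. In clone 1 against control 4 rose (Tfap2a, Gata3, Tfap2c and Eomes) and none fell, where 8.79% of genes were higher and 6.47% lower. In clone 2, 4 rose (Eomes, Tfap2a, Tead4 and Gata3) and none fell, where 7.89% of genes were higher and 7.08% lower. The contrasts with control share the control libraries. Between clones, Eomes was higher and Tfap2c lower in clone 2, where 2.53% of genes were higher and 3.77% lower (6.3% in either direction). For 4 of the 7 factors all DKO libraries lay above both control libraries, and for none below, where 16.9% of all tested genes lay above and 16.9% below. The factors summed to 75.8 to 83.7 CPM in DKO libraries and to 53.2 and 61.3 CPM in control libraries, most of it Tead4, Tfap2c and Eomes. Leaving out control library 1 left no factor called in DKO against control, and leaving out control library 2 left only Tfap2a.

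Among 11565 other genes with a mean of 2 CPM or more, those closest to Tfap2a over the 6 libraries were Lockd, Rims1 and Chd3. Their root mean square distances in log2 CPM, centred on the control mean, were 0.223, 0.248 and 0.252. Lockd averaged 6.49 CPM in DKO and 2.47 CPM in the control, and Chd3, a chromatin remodeller, 48.7 CPM in DKO and 17.4 CPM in the control. Closest to Gata3 were Gstm6, Gprc5a and Gstm1, at distances of 0.218, 0.265 and 0.280, and Gstm6, a glutathione transferase, averaged 3.34 CPM in DKO and 1.44 CPM in the control. Gstm6 and Gstm1 lie on chromosome 3, and Lockd and Gprc5a on chromosome 6. With 6 points per gene from the same libraries, this nearness is a description.

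Of 22 other trophoblast transcription factors tested, 2 fell (Satb1 and Grhl1), none rose and 20 did not pass in DKO against control, with a median log2 change of -0.20. Over all tested genes 5.06% were higher and 3.62% lower, and the lists were not tested against each other. In single clones, 2 rose and 3 fell in clone 1 against control, and none rose and 6 fell in clone 2. The shares of all tested genes were 8.79% higher and 6.47% lower in clone 1, and 7.89% and 7.08% in clone 2. Satb1, a chromatin organiser that supports trophoblast stem cells, had 2.51 and 2.69 CPM in clone 1 and 3.01 and 3.56 CPM in clone 2, against 8.56 and 8.08 CPM in the control. It fell by 1.499 on the log2 scale (edgeR adjusted p = 0.00102), and the highest DKO library, at 3.56 CPM, was well below both control libraries. Grhl1, an epithelial grainyhead factor, fell to 3.63 ± 0.480 CPM in DKO (SD, n = 4), against 6.01 ± 0.564 CPM in the control (SD, n = 2; log2 change -0.73, adjusted p = 0.0276). Its adjusted p was 0.245 without control library 1, 0.12 without control library 2 and 0.0546 without clone 1 library 2. At an unadjusted p under 0.05, 3 of the 22 were higher and 5 lower, with no share of all genes at that threshold. DESeq2 called 1 of the 22 higher and limma-voom none, where they called 965 and 745 of all tested genes higher. Sox21, a SOX factor of trophoblast stem cells, was at 4.59 and 5.17 CPM in clone 1 and 2.49 and 1.95 CPM in clone 2, against 1.75 and 1.73 CPM in the control (DKO edgeR adjusted p = 0.129). It rose in clone 1 against control (log2 change 1.49, edgeR adjusted p = 0.000516) and was lower in clone 2 than in clone 1 (-1.14, adjusted p = 0.00907). Tfeb, a bHLH factor needed for placental vessels, also rose in clone 1 (0.37, edgeR adjusted p = 0.0172). Sox21 and Tfeb were named after their values were seen.

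Paralogues of the 9 factors were not called in DKO against control: of 15 tested, none rose or fell in edgeR, with a median of -0.11. Over all tested genes 5.06% were higher and 3.62% lower. At an unadjusted p under 0.05, 3 of the 15 were higher and 1 lower, with no share of all genes at that threshold. DESeq2 called 2 of them higher and limma-voom 1, and neither called any lower. Among all tested genes DESeq2 called 965 higher and 644 lower, and limma-voom 745 higher and 611 lower. In single clones, the ETS factor gene Elf3 rose in clone 1 (log2 change 0.41, adjusted p = 0.0334) and in clone 2 (0.39, adjusted p = 0.0416). Tead2, a TEAD gene that also stands in the Hippo list, rose in clone 2 (0.64, edgeR adjusted p = 0.000119), with 95.9 and 88.4 CPM, against 58.1 and 60.2 CPM in the control. Cdx1 also rose in clone 2 (0.47, adjusted p = 0.0165). The AP-2 genes outside the 9 factors were nearly silent. Tfap2b had 0 to 2 reads a library. Tfap2d and Tfap2e were at means of 0.0375 and 0.158 CPM in DKO and 0 and 0.151 CPM in the control. Tfap2c, the AP-2 relative of Tfap2a among the 9 factors, was at means of 27.6 CPM in DKO and 24.1 CPM in the control.

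In the Hippo pathway, which restrains YAP and TEAD, 3 of 19 genes rose, 1 fell and 15 did not pass, with a median of 0.04. Over all tested genes 5.06% were higher and 3.62% lower. Mob1a, an activator of LATS kinases, rose by 0.53 (edgeR adjusted p = 0.00126) and Vgll4, a TEAD corepressor, by 0.69 (adjusted p = 0.0089). Both lie on chromosome 6, where 49.1% of tested genes were called higher. With chromosomes centred, Mob1a and Vgll4 were at 0.04 (adjusted p = 0.751) and 0.21 (adjusted p = 0.398). Nf2, the upstream activator merlin, rose to 179 ± 9 CPM in DKO (SD, n = 4), against 141 ± 5.36 CPM in the control (SD, n = 2; log2 change 0.34, adjusted p = 0.0128). Wwtr1, which codes for the YAP relative TAZ, fell to 56.5 ± 2.38 CPM in DKO, against 72.7 ± 1.01 CPM in the control (-0.36, edgeR adjusted p = 0.0124). The adjusted p without control libraries 1 and 2 was 0.158 and 0.0796 for Nf2, 0.127 and 0.100 for Wwtr1, and 0.0991 and 0.101 for Vgll4. The YAP target genes Ccn1 and Ccn2, named after their values were seen, fell in clone 2 against control, at -0.57 (edgeR adjusted p = 0.000115) and -0.66 (adjusted p = 0.000451). Clone 2 was below clone 1 for both (-0.59, edgeR adjusted p = 0.00042, and -0.37, adjusted p = 0.0413).

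Of 18 tested trophoblast stem cell and epithelial genes, 2 rose, 3 fell and 13 did not pass in DKO against control, with a median of -0.37, where 5.06% of all tested genes were higher and 3.62% lower. Bmp4, a ligand that promotes trophoblast gene expression in human ES cell cultures, had 38.7 and 42.4 CPM in clone 1 and 28 and 28.8 CPM in clone 2, against 18.2 and 18.4 CPM in the control. It rose by 0.91 on the log2 scale (edgeR adjusted p = 0.00816, but 0.114 and 0.101 without control libraries 1 and 2). Spry4, a feedback inhibitor of FGF signalling, rose by 0.50 (edgeR adjusted p = 0.0256, but 0.278 without control library 1). Cdh3, P-cadherin, fell to 12.6 ± 1.74 CPM in DKO (SD, n = 4), against 24.4 ± 4.30 CPM in the control (SD, n = 2; -0.96, adjusted p = 0.00282, and 0.0662 without control library 2). Rhox6, a placental homeobox gene, fell by 0.83 (edgeR adjusted p = 0.0236, and 0.0866 and 0.257 without control libraries 1 and 2). Krt8, an early trophectoderm keratin named after its values were seen, fell by 0.95 (edgeR adjusted p = 0.0327, and 0.0699 and 0.362 without control libraries 1 and 2). Its partner keratin Krt18 had 2.83 ± 0.606 CPM in DKO and 4.78 ± 0.252 CPM in the control (adjusted p = 0.0543).

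Of 20 placental trophoblast genes only 6 passed the filter. Of those 6, 2 fell (Peg10 and Flt1), none rose in edgeR and 4 did not pass, with a median of -0.67, where 5.06% of all tested genes were higher and 3.62% lower. DESeq2 and limma-voom also called none higher, and at an unadjusted p under 0.05 none was higher. Peg10, an imprinted gene needed for the placenta, fell to 107 ± 3.48 CPM in DKO (SD, n = 4), against 143 ± 8.81 CPM in the control (SD, n = 2; log2 change -0.41, edgeR adjusted p = 0.00416, and 0.0839 without control library 2). Flt1, a VEGF receptor, had an adjusted p of 0.0477, which was 0.423 and 0.0921 without control libraries 1 and 2, and 0.0736, 0.089 and 0.0763 without clone 1 library 2, clone 2 library 1 and clone 2 library 2. The summed level of the 20 genes was 116.5 to 121 CPM in DKO libraries and 162 and 166 CPM in control libraries, most of it Peg10. Peg10 lies on chromosome 6, whose median was shifted up by 0.48 in DKO. Over 15 alternatives the DKO log2 change of Peg10 was -0.8947 to -0.3454.

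**Figure D4:**
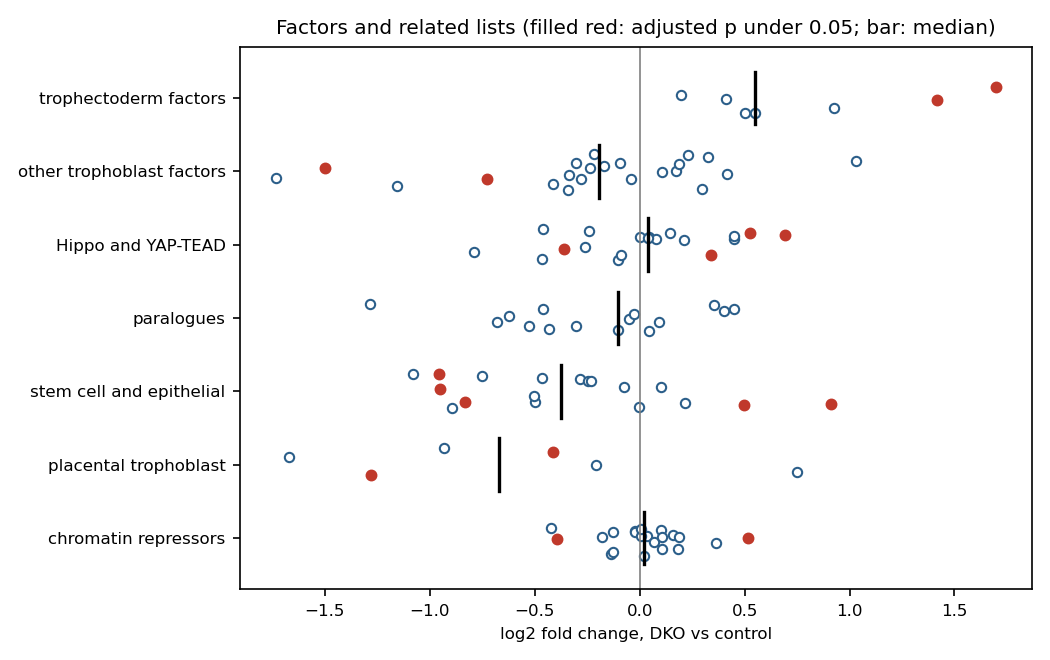
Log2 fold change in DKO vs control of the tested genes of each list, 1 point per gene, with filled red points at adjusted p under 0.05 and a black bar at the list median. The trophectoderm factors have a median of 0.55, and the stem cell and epithelial genes and the placental genes have medians of -0.37 and -0.67.

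Of 21 chromatin repressors of trophoblast genes 1 rose, 1 fell and 19 did not pass, with a median of 0.02, a share of calls near the 8.69% of all tested genes. Ezh2, the H3K27 methyltransferase, rose by 0.52 (edgeR adjusted p = 0.00164), but it lies on chromosome 6 and was at 0.03 (adjusted p = 0.831) with chromosomes centred. Its partner in Polycomb complex PRC2, Suz12, fell to 284 ± 13.1 CPM in DKO (SD, n = 4), against 374 ± 31.4 CPM in the control (SD, n = 2; -0.40, adjusted p = 0.00652, and 0.135 without control library 1). Among 12 core pluripotency factors 1 rose, Nanog, and 11 did not pass, with a median of 0.06. Of the 10 ES cell markers Nanog rose, Tdgf1 fell and 8 did not pass. Tdgf1, a Nodal co-receptor, was at -0.28 (edgeR adjusted p = 0.0415, and 0.0655 to 0.296 without either control library, either clone 1 library or clone 2 library 2). Nanog, on chromosome 6 too, was at 0.33 (edgeR adjusted p = 0.0281, and 0.193 and 0.190 without control libraries 1 and 2) and at -0.15 (adjusted p = 0.308) with chromosomes centred.

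Marker lists of other cell types, some of which use these factors, held no gene called higher in DKO against control. None was higher at an unadjusted edgeR p under 0.05 or called higher by DESeq2 or limma-voom. Over all tested genes 5.06% were higher and 3.62% lower at the adjusted threshold in edgeR. Of 8 tested mesoderm and primitive streak genes 1 fell (Lefty2) and none rose. Their summed level was 61.7 to 114 CPM in DKO libraries and 196 and 206 CPM in control libraries. Most of it was Lefty2, with means of 80 CPM in DKO and 194 CPM in the control. Mesp1 had 0 reads throughout. Of 12 tested primitive endoderm genes 2 fell (Col4a1 and Lamb1) and none rose, with sums of 83.0 to 91.3 CPM in DKO and 115 and 116 CPM in the control. None of 4 tested neural and surface ectoderm genes was called, or had an unadjusted p under 0.05, in edgeR for DKO against control. Their sums were 67.9 to 86.6 CPM in DKO and 83.6 and 88.1 CPM in the control. In clone 2 against control 1 of the 4 fell, Sox1 (log2 change -1.11, edgeR adjusted p = 0.000371). The share of all tested genes that were lower in clone 2 was 7.08%. The surface ectoderm markers Krt5, Krt14 and Trp63 had 0 to 5 reads a library. Of 6 tested fibroblast genes 2 fell (Acta2 and Twist1) and none rose, and Dcn had 0 to 6 reads a library. Their sum was 1312 to 1510 CPM in DKO libraries and 1265 and 1287 CPM in control libraries, most of it Fn1 and Vim, and Vim rose in clone 1 (log2 change 0.45, edgeR adjusted p = 0.00137). The part of these cell types in the factors' levels was not tested. The calls of Lefty2, Lamb1, Col4a1, Acta2 and Twist1 each ended without control library 1 (adjusted p 0.0555 to 0.241) and without control library 2 (0.0662 to 0.255), and that of Lamb1 also without clone 1 library 1 (0.0511).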

How the data were processed

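The authors deposited a single table with raw read counts of 6 libraries by Entrez ID, plus the width of each gene. Reads were aligned with STAR 2.5.0a to mm10 (GRCm38), per the submitters' processing notes. Per the labels' protocols, RNA came from RNeasy columns with Turbo DNase, and libraries from the ScriptSeq v2 kit. The sources used here do not give the counting tool, annotation or strand. Symbols and positions came from a RefSeq table on GRCm38.p6, which matched 24437 of 24467 IDs.

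In R 4.3.3, edgeR 4.0.16 filtered genes (filterByExpr, 3 groups) and scaled libraries by TMM, and CPM and RPKM use that scaling. DKO against control was tested by the quasi-likelihood test with genotype alone, and clones in a 3-group fit, two-sided, with Benjamini-Hochberg adjustment over 14771 genes and a threshold of 0.05. Intervals of log2 changes use edgeR's moderated degrees of freedom.

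The members, lists and tests were chosen with earlier results of these data known. By rule, the named genes were the 9 factors and up to 4 called genes per list by smallest p. The 3 nearest genes to each called factor, and Cbx5 and Cbx1, were also named by rule. Other list genes, among them Elf3, Tead2, Cdx1, Vim and Sox1, were named after their values were seen. Libraries of 1 clone differed by more than sampling noise, most of all those of the control (chi-square per gene 44.6, against 12.2 in clone 1 and 12.9 in clone 2). Alternatives were RLE and library-size scaling, no filter, DESeq2 1.42.0, limma-voom (limma 3.58.1), a replicate block, centred chromosomes, sums per clone and each library left out.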

Additional observations from a re-analysis of the deposited data

Results flagged for a closer look

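The clone contrast passed for 2 of the 7 tested factors. Eomes was higher in clone 2 than in clone 1, by a log2 change of 0.793 (19.9 and 17.7 CPM in clone 2 and 11.1 and 10.6 CPM in clone 1; edgeR adjusted p = 0.00399). Tfap2c was lower in clone 2 than in clone 1, with a log2 change of -0.465 (23.9 and 22.4 CPM in clone 2 and 33.6 and 30.3 CPM in clone 1; edgeR adjusted p = 0.016). This contrast is also the test of whether the clones' effects against their shared control differ. No factor had a library set far apart from the other DKO libraries.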

How the results depend on the processing

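Tfap2a kept its call in DKO against control in 13 of 15 alternatives and Gata3 in 10 of 15, and each stayed higher in all 15. Eomes passed in 5 of 15 (adjusted p 0.000217 to 0.415). Against the 2 factors called higher, DESeq2 called 4, the 3-group mean of both clones 4, the replicate block 1 and counts summed per clone 0 (1 residual degree of freedom). The main fit called 748 of all tested genes higher, DESeq2 965, the 3-group mean 1379 and the replicate block 555. The replicate numbers did not pair the libraries (correlations of -0.0834 to 0.028), and under the replicate block Gata3 had edgeR adjusted p = 0.0544.

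Over all genes, 748 were higher and 535 lower in DKO, against 294 higher with chromosomes centred, 0 and 2 with counts summed per clone, and 1379 and 1249 in the 3-group mean. Centred, 749 were higher in clone 1 (1298 uncentred) and 772 in clone 2 (1165 uncentred). Without the filter, 644 were higher in clone 2 than in clone 1 (373 with it). Ranked by CPM without length, Tfap2a was 4 and Gata3 5 in the control, the reverse of their order per length.

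Leaving out 1 library gave 0 to 3 factors higher in DKO, with 158 to 715 genes higher and 88 to 482 lower. In clone 1 it gave 2 to 5 factors higher, with 797 to 1198 genes higher and 495 to 853 lower. In clone 2 it gave 3 to 4 factors higher, with 656 to 1197 genes higher and 467 to 1105 lower. Between clones it gave 0 to 1 factor higher and 0 to 1 lower in clone 2, with 115 to 377 genes higher and 155 to 557 lower. The lowest DKO counts were those without control library 1, where 1 control library remains.

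Of the 21 calls of named list genes, 16 ended without control library 1, 16 without control library 2, all 21 with counts summed per clone, 4 under the replicate block and 7 with chromosomes centred, where 1 more (Nanog) turned its direction.

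Directions turned for values that were not called, Nanog excepted, and the cause was not tested. With chromosomes centred Tead4 was at -0.0691 in DKO and -0.169 in clone 1, Gata2 at -0.0911 in clone 1, and Nanog at -0.152 in DKO. With a single library left out, clone 1 against control gave -0.0757 to 0.6711 for Gata2, and clone 2 against control gave -0.5627 to 0.6364 for Cdx2 (-0.1036 without control library 2) and -0.1156 to 0.01268 for Tfap2c. Clone 2 against clone 1 gave -0.3899 to 0.1664 for Tfap2a (0.1371 without clone 1 library 1) and -0.02621 to 0.7211 for Gata2 (-0.02582 without clone 1 library 2). Depth limits the trace genes: Cdx2 had 4 to 16 reads a library.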
